A study of Mus musculus with 16 samples.

Results

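Desert peaks are accessible chromatin regions that lie far from any gene start. Here a peak was counted as a desert peak when its midpoint was more than 200 kb from every protein-coding transcription start site, by the GENCODE vM21 basic annotation of the mouse genome build mm10. The rule used position alone and no measured value, and it found 14293 desert peaks among 136630 nuclear peaks (10.5%). A desert was the longest unbroken stretch in which every base met the same distance rule, and each was named by the protein-coding genes on either side of it. The word describes distance from start sites and not an absence of genes. Of the 14293 peaks, 2629 (18.4%) lay inside the body of a protein-coding gene, in a long gene whose start was far away, and another 1923 (13.5%) lay in non-coding genes only. When start sites of every annotated gene were counted, 944 peaks (0.691% of nuclear peaks) remained.

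Accessibility was measured by ATAC-seq, in which the Tn5 transposase cuts and tags open chromatin, in tumor cells of a mouse model of pancreatic ductal adenocarcinoma. The cells carried Ptf1a-Cre, which is active in the pancreas, a Rosa26 LSL-rtTA3-IRES-mKate2 allele and a doxycycline-inducible, GFP-linked shRNA against Smad4 at Col1a1, and had a mixed C57BL/6J and 129 background from male embryonic stem cells. Cell lines made from such tumors were transplanted into female Foxn1nu nude mice aged 6 to 8 weeks, which lack T cells of thymic origin, and were placed in the pancreas by orthotopic injection, in the liver by intrasplenic injection or in the lungs by tail-vein injection. All hosts ate doxycycline chow, so that Smad4 was off. In the Smad4 on groups doxycycline was withdrawn after 4 weeks of growth for pancreas tumors, 5 for liver metastases and 6 for lung metastases, and mKate2-positive cells were sorted 14 days later by the study's methods, while the lung columns of the deposited table are labelled day 15. There were 16 mice: 3 with Smad4 off and 3 with Smad4 on in the pancreas (Panc_OFF, Panc_ON), 2 and 2 in the liver (Liv_OFF, Liv_ON), and 3 and 3 in the lungs (Lung_OFF, Lung_ON). Organ and weeks of growth changed together and cannot be told apart, and the labels do not say which cell line each mouse received. Doxycycline is also absent wherever Smad4 is on, and its own part cannot be told apart from that of Smad4 in these samples.

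Chromatin far from start sites is where many enhancers lie. Enhancers are bound by transcription factors, loop to promoters over long distances, and differ between cell types and cell states far more than promoters do. Gene deserts often flank genes that control development, such as Sox9, Myc, Shh or Bmp2. AP-1 (the Fos and Jun family) and the RUNX factors open enhancers in mesenchymal and injured epithelial states, KLF, HNF1, HNF4 and FOX factors are known for epithelial and endodermal enhancers, and Smad4 is the shared partner of the receptor-activated Smad proteins that carry TGF-beta and BMP signals to chromatin.

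The following stretches show what such peaks look like: each is the central 200 bases of a desert peak on the plus strand of mm10, in lower case with motif matches in capitals. They were chosen because they were among the most significant peaks of a comparison and carry a motif match. In the Shh/Rnf32 stretch (chr5:28689543-28689742) the capitals are an HNF1 match, and in the Foxo1/Cog6 stretch (chr3:52663438-52663637) a FOX and then a KLF match; both peaks were higher in the liver. The capitals are AP-1 matches in the Nav3/E2f7 stretch (chr10:110485057-110485256), a TEAD and then 2 AP-1 matches in the Clic5/Runx2 stretch (chr17:44500500-44500699), and an AP-1 and then a RUNX match in the Bmper/Npsr1 stretch (chr9:23567174-23567373); these 3 peaks were lower in the liver. In the Ptprg (chr14:11965563-11965762) and Epm2a/Utrn (chr10:12207474-12207673) stretches, both from peaks higher with Smad4 on, the capitals are AP-1 matches. In the Jag1/Btbd3 (chr2:137794910-137795109) and Klf4/Gm26657 (chr4:56104981-56105180) stretches, both from peaks lower with Smad4 on, they are FOX matches.
Shh/Rnf32: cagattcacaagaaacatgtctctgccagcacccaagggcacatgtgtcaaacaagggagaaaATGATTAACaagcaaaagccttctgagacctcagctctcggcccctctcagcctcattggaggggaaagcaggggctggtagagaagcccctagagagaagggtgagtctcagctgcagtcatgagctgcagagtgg
Foxo1/Cog6: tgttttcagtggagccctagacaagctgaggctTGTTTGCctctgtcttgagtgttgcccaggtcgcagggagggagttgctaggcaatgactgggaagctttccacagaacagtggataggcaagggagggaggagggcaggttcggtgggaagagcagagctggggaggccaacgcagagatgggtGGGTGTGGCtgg
Nav3/E2f7: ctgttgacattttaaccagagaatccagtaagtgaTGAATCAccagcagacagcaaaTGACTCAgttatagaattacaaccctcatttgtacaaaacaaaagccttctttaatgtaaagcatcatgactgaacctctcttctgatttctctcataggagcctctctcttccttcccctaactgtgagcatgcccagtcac
Clic5/Runx2: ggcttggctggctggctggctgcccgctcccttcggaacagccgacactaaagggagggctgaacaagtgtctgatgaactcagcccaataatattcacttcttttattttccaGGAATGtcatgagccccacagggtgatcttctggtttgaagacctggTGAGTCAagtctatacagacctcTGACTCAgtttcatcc
Bmper/Npsr1: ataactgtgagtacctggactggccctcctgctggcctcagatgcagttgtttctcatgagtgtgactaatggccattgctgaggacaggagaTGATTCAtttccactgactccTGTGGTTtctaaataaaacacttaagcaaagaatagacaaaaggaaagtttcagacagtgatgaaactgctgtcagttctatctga
Ptprg: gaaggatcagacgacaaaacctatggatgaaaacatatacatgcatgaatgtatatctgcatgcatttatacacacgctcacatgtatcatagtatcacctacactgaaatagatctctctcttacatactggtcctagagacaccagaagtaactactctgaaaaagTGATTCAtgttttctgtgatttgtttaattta
Epm2a/Utrn: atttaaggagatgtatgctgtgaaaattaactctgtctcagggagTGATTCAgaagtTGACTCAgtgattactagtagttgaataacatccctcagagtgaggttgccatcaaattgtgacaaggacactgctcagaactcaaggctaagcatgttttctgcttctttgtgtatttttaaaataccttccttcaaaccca
Jag1/Btbd3: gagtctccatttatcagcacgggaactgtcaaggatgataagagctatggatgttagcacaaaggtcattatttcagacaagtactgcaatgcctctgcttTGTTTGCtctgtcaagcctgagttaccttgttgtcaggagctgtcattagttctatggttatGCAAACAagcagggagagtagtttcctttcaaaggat
Klf4/Gm26657: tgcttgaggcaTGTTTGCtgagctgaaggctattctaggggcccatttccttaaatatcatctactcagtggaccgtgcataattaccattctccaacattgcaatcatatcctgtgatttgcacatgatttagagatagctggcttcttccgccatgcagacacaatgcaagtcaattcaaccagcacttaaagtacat

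Motifs were searched as fixed letters on both strands of the central 200 bases of every peak. The AP-1 letters TGANTCA were in 39.6% of desert peaks, in 28.1% of all nuclear peaks and in 5.44% of peaks up to 1 kb from a start site, which are called promoter peaks from here on. RUNX letters (TGTGGTT or TGCGGTT) were in 10.5% of desert peaks and 8.71% of all peaks, TEAD letters (GGAATG) in 16.6% and 14.5%, FOX letters (TGTTTAC or TGTTTGC) in 11.3% and 9.38%, and HNF1 letters (GTTAATNAT) in 1.45% and 1.02%. KLF letters (GGGNGTGGC or GGGNGGGGC) ran the other way, in 2.07% of desert peaks and 5.65% of all peaks, as did CTCF letters (AGGNGGCAG) at 1.20% and 2.35%. HNF4 letters (CAAAGTCCA; 0.805% and 0.794%) and SMAD letters (CAGACAGNC or GTCTAGAC; 1.86% and 1.90%) were about as frequent in both. A match is a match of letters and not a bound site, and a peak without one lacks only these letters in this window. The KLF letters are rich in G and C, and desert peaks were not: their median GC content was 41.5%, against 45.8% over all peaks and 55.2% at promoters.

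Desert peaks were sparse, narrow and low. Deserts covered 783.8 Mb, or 28.8% of the genome, and held 18.2 peaks per Mb, against 63.0 per Mb elsewhere. The annotation gave 1354 deserts, of which 1016 held at least 1 peak and 338 held none. A desert with peaks held a median of 8 and at most 122. The median distance from a desert peak to the nearest protein-coding start was 334 kb, the largest was 2653 kb, and 753 peaks were over 1 Mb away. Median width was 490 bp against 589 bp over all nuclear peaks, and the median normalized count, which is the number of reads in a peak divided by the size factor of its library, was 30.0 against 57.5 (promoter peaks, 687). The median number of reads per desert peak was lowest in Liv_OFF, at 13 and 11, and reached 53 in a Panc_ON library, so single desert peaks were counted with limited precision in the liver.

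Facts of the whole series bear on these values as follows. The libraries held 23.0 to 38.2 M reads in peaks (M, 1e6 reads), with 1.43 to 3.56% of them mitochondrial and the highest shares in Liv_OFF. All values were whole reads once multiplied by the size factor, within a tolerance of 0.1 of a read, and every replicate pair differed by more than counting noise. Among start-site peaks of marker genes, all 5 epithelial markers had peaks (summed normalized counts 11359 to 19060 in the pancreas, 18190 to 27348 in the lungs and 31678 to 42481 in the liver), 4 of 4 fibroblast markers had them (1738 to 3355, 756 to 1660 and 687 to 961), as did 3 of 3 endothelial markers (172 to 210, 116 to 823 and 42.7 to 82.7), 1 of 4 immune markers (Csf1r; 19.6 to 54.4, 8.40 to 35.0 and 6.17 to 22.1) and 1 of 4 hepatocyte markers (Ttr; 20.4 to 96.5, 52.5 to 96.7 and 164 to 242). No peak lay at the starts of Ptprc, Cd3e, Lyz2, Alb, Apoa1, Serpina1a or the 3 lung alveolar markers Sftpc, Sftpb and Sftpa1, which is not a count of 0 reads. Dcn, a fibroblast collagen-binding gene, stood at 49.8 to 196 in the pancreas and at 11.1 to 23.4 elsewhere. The part of these other cells, and of depth, in the differences between organs given next was not tested.

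Desert chromatin as a whole was least open in the liver. Desert peaks took 2.76% and 2.71% of all nuclear reads in the 2 Liv_OFF mice and 3.2% and 3.06% in the 2 Liv_ON mice. They took 3.92%, 3.80% and 4.03% in Panc_OFF, 4.23%, 4.66% and 5.06% in Panc_ON, 4.25%, 3.46% and 3.96% in Lung_OFF and 4.00%, 3.88% and 3.80% in Lung_ON. The 4 liver libraries were below all 12 others, the 3 Panc_ON libraries were above all 3 Panc_OFF libraries, and the 2 lung groups overlapped. As these are bulk samples, fewer cells with an open site and less opening per cell cannot be told apart. The median normalized count of desert peaks was 15.7 ± 0.508 (SD, n = 2) in Liv_OFF, 18.6 ± 3.33 (n = 2) in Liv_ON, 25.9 ± 5.32 (n = 3) in Lung_OFF, 25.1 ± 2.58 (n = 3) in Lung_ON, 30.0 ± 2.09 (n = 3) in Panc_OFF and 37.2 ± 3.42 (n = 3) in Panc_ON. Promoter peaks did not follow this order, with 847 ± 49.4 in Liv_OFF, 649 ± 30.2 in Lung_OFF and 652 ± 10.4 in Panc_OFF.

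**Figure D1:**
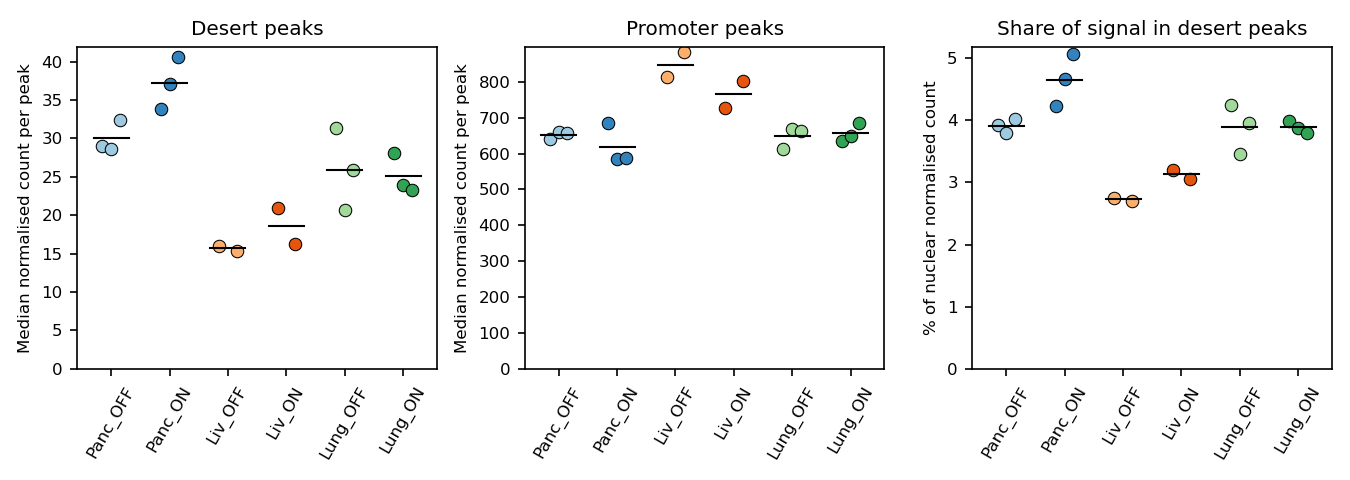
Each point is 1 sample and each line a group mean, for the median normalized count of desert peaks (left), the median normalized count of promoter peaks (middle) and the share of nuclear reads in desert peaks in percent (right). The liver samples are lowest in desert peaks, with Liv_OFF at 15.7 and Panc_ON at 37.2 on average, and Liv_OFF is highest at promoters.

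The comparison of liver and lung metastases with Smad4 off asks how chromatin differs between the organs before restoration. A call needed a log2 fold change of 0.58 or more in either direction and an adjusted p of 0.1 or less, by limma with Benjamini-Hochberg adjustment over all 136630 nuclear peaks. Of the desert peaks 7673 (53.7%) were called, against 49.7% of all peaks. The calls leaned one way: 5548 desert peaks (38.8%) were lower in the liver, against 26.8% of all peaks, and 2125 (14.9%) were higher, against 22.9%. Thus 72.3% of desert calls were lower in the liver, and 53.9% of the calls over all peaks. The median log2 fold change of liver over lungs was -0.72 over desert peaks, 0.00 over all peaks and 0.40 over promoter peaks. Called desert peaks moved far, by a median of 1.66 when higher and -1.91 when lower. Over 18 alternative settings the share of desert peaks called ranged from 38.1 to 61.4%, the share of calls that were lower from 66.1 to 74.9%, and the median from -0.92 to -0.42.

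Against the pancreas the liver showed the same lean. With Smad4 off 8990 desert peaks (62.9%) were called, against 58.5% of all peaks. Of these 6605 (46.2%) were lower in the liver and 2385 (16.7%) higher, against 32.3% and 26.2% of all peaks, and the median log2 fold change was -0.95 over desert peaks, -0.05 over all and 0.37 at promoters. Liv_OFF is in both comparisons, so they are not independent of each other. With Smad4 on 9509 desert peaks (66.5%) were called between liver and pancreas, against 59.4% of all peaks, with 7102 (49.7%) lower and 2407 (16.8%) higher in the liver (all peaks, 32.2% and 27.1%) and a median of -1.12 over desert peaks. Between liver and lungs with Smad4 on 5536 (38.7%) were called, against 35.8% of all peaks, with 3857 (27.0%) lower and 1679 (11.7%) higher in the liver (all peaks, 18.2% and 17.6%) and a median of -0.52. Without Liv_ON replicate 2 the shares called fell to 40% against the pancreas and 11.8% against the lungs.

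Lungs and pancreas differed less. With Smad4 off 2908 desert peaks (20.3%) were called, against 17.3% of all peaks, with 2023 (14.2%) lower and 885 (6.19%) higher in the lungs (all peaks, 10.7% and 6.59%). The median over desert peaks was -0.01. The share called was 12.4% without Panc_OFF replicate 2 and 10% without Panc_OFF replicate 3. With Smad4 on 4134 (28.9%) were called, against 27.8% of all peaks, with 3033 (21.2%) lower and 1101 (7.70%) higher in the lungs (all peaks, 14.9% and 12.8%) and a median of -0.30. Quantile normalization, which moved the median over all peaks from 0.00 to 0.11, lowered the share of lower calls there from 73.4 to 61.6% and moved the desert median to -0.08. Without Panc_ON replicate 1 the share called was 18.9% and without Lung_ON replicate 3 it was 19.1%.

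Distance from the nearest start site sorted the liver to lung differences, and the deserts continued a trend that began closer to genes. With Smad4 off the share of peaks lower in the liver was 5.76% at promoters, 24.7% from 1 to 50 kb, 34.5% from 50 to 200 kb, 38.9% from 200 to 300 kb, 39.8% from 300 to 500 kb, 36.9% from 500 kb to 1 Mb and 39.3% beyond 1 Mb. The median log2 fold change went from 0.40 at promoters to 0.06, -0.36, -0.64, -0.75, -0.80 and -0.90 in the same classes. Nothing broke at the 200 kb limit: the 949 peaks at 190 to 200 kb had a median of -0.58 with 39.9% lower, and the 854 at 200 to 210 kb had -0.55 with 37.2% lower. Desert peaks inside the body of a protein-coding gene (39.1% lower) and outside one (38.7%) were alike in this share.

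**Figure D2:**
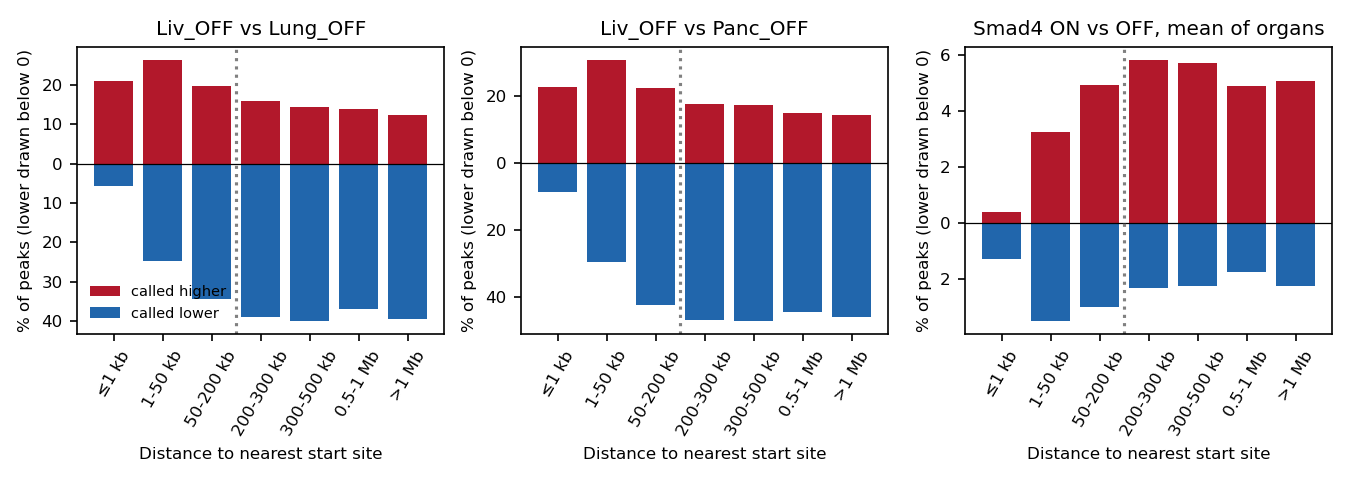
Percentage of peaks called higher (above 0) and lower (below 0) by distance of the peak midpoint from the nearest protein-coding start site, for liver over lungs and liver over pancreas with Smad4 off and for Smad4 on over off as the mean of 3 organs. The dotted line marks 200 kb; peaks lower in the liver go from 5.76% at promoters to 38.9% at 200 to 300 kb.

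Level and base composition differ between deserts and the rest, and the lean was also present within bands of each. Among peaks with a mean normalized count of 40 to 80, 47.8% of desert peaks were lower in the liver than in the lungs, against 31.2% of peaks 1 to 200 kb from a start. In the other bands the shares were 26.2% and 19.1% up to 20, 40.1% and 26.0% from 20 to 40, 51.5% and 34.8% from 80 to 160, and 48.9% and 29.1% above 160. Within bands of GC content they were 40.8% and 31.5% at 40 to 45%, 37.9% and 27.9% at 45 to 50%, and 28.8% and 23.0% at 50 to 55%. In the band above 55% GC, which held 173 desert peaks, the order turned, with 13.9% and 15.7%.

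Desert peaks with AP-1 letters were more often lower in the liver. Of the 5667 desert peaks with an AP-1 match 48.6% were lower in the liver than in the lungs with Smad4 off and 7.92% were higher. The 8626 without a match had 32.4% lower and 19.4% higher, and the medians were -1.14 with and -0.39 without. The median normalized count, over all samples and so with the liver included, was 27.7 with a match and 31.9 without. The share lower was larger with a match in each of the 5 bands of level (34.6 and 20.1%, 52.7 and 31.1%, 59.7 and 39.9%, 62.6 and 44.8%, 58.9 and 44.7%, from the lowest band up). It was also larger with a match outside the deserts, with 21.5 and 4.85% at promoters, 39.3 and 19.1% from 1 to 50 kb, and 47.5 and 28.1% from 50 to 200 kb. Matches are a description over peaks, which are not replicates, and carry no test.

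Desert peaks with HNF4, HNF1 or KLF letters were higher in the liver more often than those without (14.7%, 14.7% and 14.6%). Of the 115 desert peaks with HNF4 letters 38.3% were higher and 18.3% lower in the liver than in the lungs, with a median of 0.41, and of the 207 with HNF1 letters 28.0% were higher and 30.9% lower, with a median of 0.05. The 296 peaks with KLF letters had 27.0% higher and 28.4% lower, with a median of -0.12. RUNX letters went with lower calls: of 1501 peaks 44.6% were lower and 10.3% higher, with a median of -0.99. TEAD (35.4% lower, 16.2% higher) and FOX letters (36.8% lower, 17.5% higher) stayed near the share over all desert peaks, as did the shares higher with CTCF (15.2%) and SMAD letters (12.8%).

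**Figure D3:**
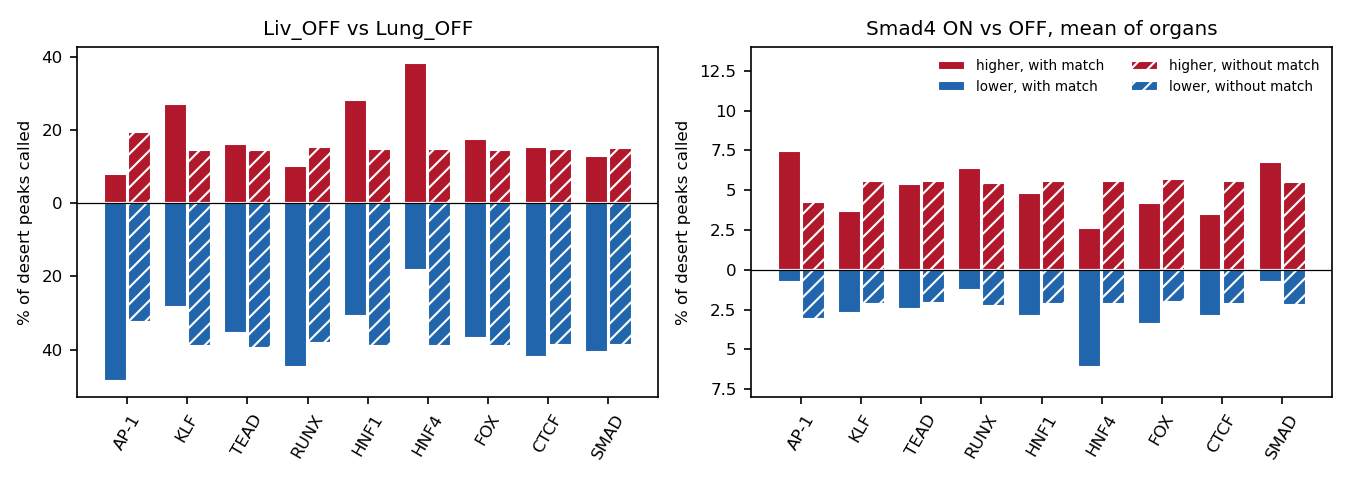
Percentage of desert peaks called higher (above 0) and lower (below 0) among those with (solid) and without (hatched) a match to each motif in their central 200 bases, for liver over lungs with Smad4 off and for Smad4 on over off as the mean of 3 organs. With AP-1 letters 48.6% of desert peaks are lower in the liver and 7.48% higher with Smad4 on.

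The peaks of smallest p in each direction, among calls whose replicates did not overlap between the groups, show the size of the organ effect at single sites. The peak at chr5:28689045-28690240, 222 kb from the start of Shh, a hedgehog ligand, holds the HNF1 match printed above and had 147 and 333 normalized counts in Liv_OFF and 238 and 298 in Liv_ON. It had 12.0, 7.61 and 6.89 in Lung_OFF, 11.2, 8.63 and 12.1 in Lung_ON, 5.98, 7.15 and 5.56 in Panc_OFF and 10.7, 22.3 and 6.90 in Panc_ON. All 4 liver samples were high and all 12 others low, with no overlap. The log2 fold change of liver over lungs with Smad4 off was 4.54 ± 0.47 (SE; limma with Benjamini-Hochberg adjustment, adjusted p = 1.64e-05). The peak at chr3:52663297-52663778, between Foxo1, a forkhead factor of the insulin pathway, and Cog6, a Golgi gene, was at 74.1 and 183 in Liv_OFF, 150 and 164 in Liv_ON and between 3.56 and 8.33 in every other sample. Liver and the other organs again did not overlap, and the log2 fold change was 4.45 ± 0.46 (adjusted p = 1.62e-05 by limma).

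A peak 366 kb from Myc, the growth-promoting transcription factor, in the desert on the A1bg side had 654 and 900 normalized counts in Liv_OFF, 57.1, 153 and 87.0 in Lung_OFF and 63.2, 67.9 and 46.3 in Panc_OFF. The liver stood above both other organs, also with Smad4 on (694 and 765 in Liv_ON), and the log2 fold change of liver over lungs with Smad4 off was 3.06 ± 0.34. The other named peaks higher in the liver lay inside Celf4, an RNA-binding protein gene, at 2.00 ± 0.24, and inside Ptprg, a receptor tyrosine phosphatase gene, at 2.79 ± 0.34. A peak inside Myo16, which encodes an unconventional myosin, was named for the liver and pancreas comparison with 717 and 823 in Liv_OFF against 102, 154 and 131 in Panc_OFF, and stood between them in Lung_OFF with 204, 342 and 243. All 3 organs were apart at this peak.

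Among peaks lower in the liver the smallest p was at chr10:110484701-110485612, between Nav3, a microtubule-binding neuron navigator, and E2f7, a cell-cycle repressor. This peak, whose stretch above has 2 AP-1 matches, had 58.0 and 72.4 normalized counts in Liv_OFF and 191 and 130 in Liv_ON. It had 539, 343 and 478 in Lung_OFF, 482, 519 and 473 in Lung_ON, 519, 473 and 477 in Panc_OFF and 564, 508 and 635 in Panc_ON. The liver was low in both states and lowest with Smad4 off, and no liver sample overlapped any other. The log2 fold change of liver over lungs was -2.76 ± 0.21 (adjusted p = 5.9e-06 by limma).

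The peak at chr17:44500025-44501174 lies inside the body of Runx2, a transcription factor of bone and mesenchyme, 235 kb from its nearest start site. It had 413 and 451 normalized counts in Liv_OFF, 1171, 948 and 1118 in Lung_OFF, and 1238, 1225 and 1228 in Panc_OFF. Liv_OFF was far below both other organs, at -1.31 ± 0.10 against the lungs (adjusted p = 6.38e-06 by limma). The peak near Bmper, a secreted BMP-binding protein, had 136 and 153 in Liv_OFF against 433 to 636 in Lung_OFF, at -1.87 ± 0.16. A peak 265 kb from Osr1, a transcription factor of foregut and kidney mesoderm, was at 146 and 202 in Liv_OFF, 774 to 990 in Lung_OFF and 1150 to 1220 in Panc_OFF, at -2.40 ± 0.22. A peak near Bckdhb, a gene of branched-chain amino acid breakdown, completed the 5 at -1.61 ± 0.15.

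Peaks that set the lungs apart from the pancreas differed in their liver levels. A peak inside Glis3, a zinc-finger factor of pancreatic development, had 78.2, 96.7 and 134 normalized counts in Lung_OFF, 30.9 and 37.6 in Liv_OFF and 10.2, 10.7 and 7.41 in Panc_OFF. Lungs were highest and pancreas lowest, at 3.30 ± 0.38 for lungs over pancreas (adjusted p = 0.000251 by limma). The peaks in Klhl29/Apob (1.84 ± 0.25) and Mex3b/Tmc3 (2.72 ± 0.38) were high in both lungs and liver, with 81.5 and 80.8 and with 152 and 195 in Liv_OFF. The named peaks lower in the lungs were highest in the pancreas: the peak between Cdh11 and Cdh5, which encode a mesenchymal and an endothelial cadherin, had 159, 180 and 268 in Panc_OFF, 3.68, 2.17 and 1.72 in Lung_OFF and 14.8 and 12.5 in Liv_OFF, at -5.85 ± 0.58. Peaks in the Rab38/Tmem135 desert (-5.45 ± 0.54) and inside Atxn1 (-4.44 ± 0.46) had the same pattern, with 62.3 to 108 and 76.0 to 154 in Panc_OFF and at most 3.68 and 6.44 in Lung_OFF. Of the 4 fibroblast markers, Dcn and Lum had this pattern too at their start sites (Lum, 62.9 to 272 in the pancreas and 1.87 to 33.3 elsewhere). Pdgfra was also higher in every pancreas sample than in any other, but less steeply, at 1267 to 2298 against 594 to 1245. Pdgfrb had 320 to 676 in the pancreas and 75.2 to 396 elsewhere, and these ranges overlapped. The part of other cells in these 3 desert peaks was not tested.

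Not every desert peak differed between organs. The 3 highest desert peaks, with mean normalized counts of 3537, 3350 and 2399, lay between Gm31371 and Gm15319, 320 kb from Sox9, a factor of duct and progenitor cells, and inside Rad51b, a DNA repair gene. Their log2 fold changes of liver over lungs with Smad4 off were 0.38 ± 0.10, 0.27 ± 0.10 and 0.20 ± 0.11, all under the size needed for a call.

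Changing peaks were spread over nearly all deserts and did not gather in a few. In the liver to lung comparison with Smad4 off 897 deserts of the 1016 with peaks held at least 1 call, and the 10 deserts with the most calls held 7.90% of the calls and 7.00% of the peaks. Within a desert the calls tended to point one way, and so did calls over all deserts, of which 72.3% were lower in the liver. The agreement that this lean alone would give was not computed. Of the 471 deserts with at least 5 calls 368 were mostly lower in the liver and 88 mostly higher, 119 had only lower calls and 20 only higher calls. Called neighbors had the same direction in 88.4% of 1438 pairs up to 5 kb apart, in 78.2% of 2157 pairs at 5 to 20 kb and in 68.5% of 852 pairs over 100 kb apart. Neighbors share a chromosome and its copy number, and these pairs carry no test.

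The desert with the most peaks and the most calls was that between Zeb2, a repressor of epithelial genes, and Acvr2a, an activin receptor (chr2:45317396-48614108, 3297 kb). It held 122 peaks, of which 56 were lower and 26 higher in the liver, and its median log2 fold change was -0.82. Its summed normalized counts were nevertheless close, at 10188 and 10802 in Liv_OFF against 12563, 10146 and 11501 in Lung_OFF, and these 2 groups overlapped. Next came the deserts Slc10a2/Efnb2 (49 lower and 23 higher of 121), Nmbr/Cited2 (44 and 25 of 103), Flrt3/Kif16b (41 and 18 of 100), the Gsdmc side of Myc (43 and 15 of 111), Klf4/Gm26657 (39 and 16 of 86) and Adamts5/N6amt1 (30 and 24 of 98). All of them held calls in both directions.

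Other large deserts moved as blocks. The longest desert, 5.02 Mb between the protocadherin genes Pcdh20 and Pcdh9, had 51 lower and 3 higher calls among 100 peaks, and summed to 2776 and 2685 in Liv_OFF, 4881, 4713 and 5779 in Lung_OFF and 6081, 5845 and 6689 in Panc_OFF. Liver was lowest and pancreas highest with no overlap among the 3. The desert beside Inhba, which encodes the activin A subunit, had 47 lower and 3 higher calls among 82 peaks, with 3414 and 3498 in Liv_OFF, 8933, 5848 and 7446 in Lung_OFF and 7724, 8089 and 8774 in Panc_OFF. Only the liver stood apart there. Epha7/Map3k7 had 43 lower and 10 higher of 78, with a median of -1.63.

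Smaller deserts reached the largest shares. Among deserts with at least 15 peaks, 21 of 22 peaks in Gbe1/Robo1 (beside the Slit receptor Robo1) were lower in the liver than in the lungs, 17 of 18 in Pcdh15/Gnaz, 14 of 15 in Mei4/Irak1bp1 and 36 of 40 in Sox5/Bcat1. Sox5/Bcat1 summed to 607 and 685 in Liv_OFF, 7711, 4919 and 3697 in Lung_OFF and 3524 to 4539 in Panc_OFF. It lies in the distal part of chromosome 6, where Lung_OFF replicate 1 stood above its group, with a median deviation of 2.41 on the log2 scale over 202 desert peaks against 0.57 and -0.20 in the other 2. The low liver values were present against each Lung_OFF sample, and without this distal part 53.6% of desert peaks were called in place of 53.7%.

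The liver-high deserts were fewer. In Slc4a3/Epha4, beside the ephrin receptor Epha4, 18 of 21 peaks were higher in the liver and none lower, with sums of 986 and 1314 in Liv_OFF and 201 to 346 in Lung_OFF. In Got2/Cdh8, beside a neural cadherin, it was 15 of 21 with none lower, and the sums were 1583 and 1653 in Liv_OFF against 258 to 466 in Lung_OFF. Liver lay above lungs with no overlap in both. Cntn5/Jrkl (22 higher and 3 lower of 41), Gm4791/Cadm1 (10 and 3 of 18) and Tbc1d1/Klf3 (16 and 7 of 30, beside the repressor Klf3) followed.

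**Figure D4:**
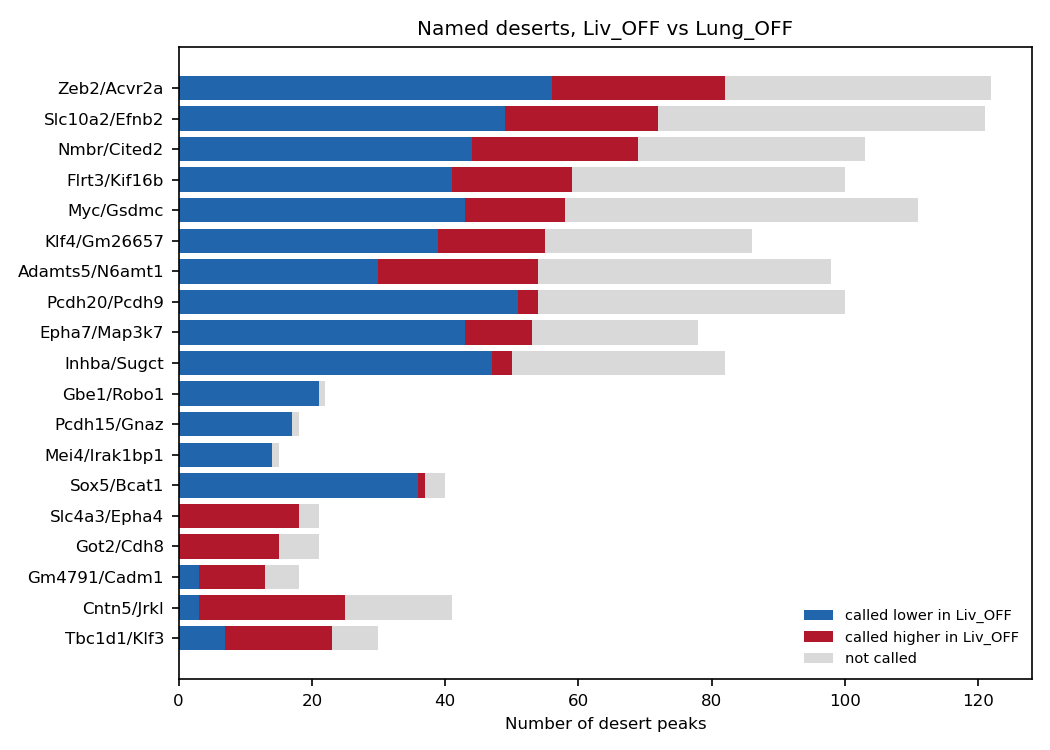
Number of desert peaks called lower, called higher and not called for liver over lungs with Smad4 off in 19 deserts, each a bar named by its flanking genes: the 10 with the most calls, and 4 of the 5 with the largest share lower and the 5 with the largest share higher among deserts with at least 15 peaks. The bars from Zeb2/Acvr2a (56 lower, 26 higher of 122) to Inhba/Sugct (47 and 3 of 82) hold the most calls.

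Deserts were also grouped by lists of flanking genes, where all deserts beside a listed gene count, whichever way they moved. Beside genes of the TGF-beta superfamily and matrix, 6 of 21 listed genes flanked 9 deserts with 189 peaks, of which 99 were lower and 13 higher in the liver than in the lungs with Smad4 off (59.3% called, median -1.15, against 53.7% and -0.72 over all desert peaks). The desert between Bmp2 and Hao1 had 20 lower and 2 higher calls of 29 peaks, that between Sntb1 and Has2, the hyaluronan synthase, 11 and 1 of 20. Beside RUNX, AP-1 and mesenchymal factors, 11 of 19 genes flanked 14 deserts with 252 peaks, of which 121 were lower and 48 higher (67.1% called, median -1.04). Around Runx1 it was 21 lower and 8 higher of 42, and in Meis1/Spred2 8 lower and none higher of 16, while the small deserts beside the AP-1 genes went the other way, with 4 higher and 1 lower of 5 in Babam2/Fosl2 and 4 higher and 2 lower of 6 in Jun/Fggy.

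The list of endoderm and epithelial factors had 19 of 29 genes beside 25 deserts with 725 peaks, of which 288 were lower and 132 higher (57.9% called, median -0.59). It held deserts of either direction. Klf5/Klf12 had 23 higher and 10 lower of 57 peaks and summed to 15341 and 15692 in Liv_OFF against 9400, 11521 and 10394 in Lung_OFF, and Sox9/Slc39a11 had 23 higher and 20 lower of 67. Pax1/Foxa2, beside an endoderm pioneer factor, had 15 lower and none higher of 27. Growth genes, with 6 of 10 genes, 10 deserts and 305 peaks, had 96 lower and 63 higher (52.1% called, median -0.16). Fam49a/Mycn had 10 higher and 1 lower of 23, and the A1bg side of Myc 19 higher and 14 lower of 59. Going the other way, the Gsdmc side of Myc had 15 higher and 43 lower of 111, and Fut10/Nrg1 had 2 and 12 of 22. A flanking gene names the place and is not shown to be the target of these peaks.

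Restoring Smad4 asks what Smad4 does to chromatin in each organ. It changed few desert peaks in any organ taken alone. In the pancreas 294 desert peaks (2.06%) were called, against 3.42% of all peaks, with 192 (1.34%) lower and 102 (0.714%) higher with Smad4 on. Over all peaks 3.06% were lower and 0.364% higher, so desert peaks held 20.5% of all higher calls and 4.60% of all lower calls while making up 10.5% of the peaks. The median log2 fold change of Smad4 on over off was 0.30 over desert peaks, 0.04 over all and -0.07 at promoters, and 68.1% of desert peaks had a value above 0, against 53.3% of all. The split of calls was not stable: 65.3% of desert calls were lower, but 54.7% after quantile normalization, 82.4% after correction for GC content, 52.2% by edgeR and 41.6% by DESeq2 on the recovered reads, 47.1% with a pseudocount of 10 and 30.3% when only the pancreas groups were fitted. The share called fell to 0.413%, 0.133% and 0.497% without Panc_OFF replicates 1, 2 and 3, and to 0.700% and 0.742% without Panc_ON replicates 1 and 2.

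In the liver 91 desert peaks (0.637%) were called, against 0.55% of all peaks, with 79 (0.553%) higher and 12 (0.0840%) lower with Smad4 on (all peaks, 0.462% and 0.0886%), and the desert median was 0.20. This count rests on 2 mice a group: it was 0.014% of desert peaks without Liv_OFF replicate 1, 0.007% without Liv_ON replicate 1 and 2.62% without Liv_ON replicate 2. The desert median in the liver was 0.08 without Liv_ON replicate 1 and 0.33 without Liv_ON replicate 2. In the lungs limma called 0 desert peaks, against 0.00366% of all peaks, or 5 peaks. At an unadjusted p under 0.05 there were 1031 desert peaks (7.21%, and 7.11% of all peaks), edgeR called 0 and DESeq2 48 higher and 40 lower (0.616%). The median over desert peaks in the lungs was 0.02.

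The mean of the 3 organs, with each organ weighted alike, gave more calls. It called 1101 desert peaks (7.70%), against 6.62% of all peaks: 792 (5.54%) were higher with Smad4 on and 309 (2.16%) lower, against 3.61% and 3% of all peaks. Desert peaks held 16% of all higher and 7.53% of all lower calls, and their median log2 fold change was 0.18, against 0.01 over all peaks and -0.08 at promoters. Of the 29 alternatives run, the fit of only the groups compared was the main fit again. Those with other thresholds, distances or start sites, or without distal chromosome 6, recounted the calls of that fit. Higher calls outnumbered lower in each of the 29, where lower calls made up 18.1 to 43.3% of the total, and the share called was lowest, at 1.81%, with thresholds of 1 and 0.05. When single libraries were left out it was 2.54% without Liv_ON replicate 1, 3.04% without Liv_OFF replicate 1 and 14.8% without Lung_OFF replicate 1. It was 4.36% without Lung_OFF replicate 2, 4.93% without Lung_ON replicate 1 and 5.07% without Panc_OFF replicate 2.

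The medians rose with distance in the mean of organs and in the pancreas, but not in each organ. The median log2 fold change of Smad4 on over off in the mean of organs was -0.08 at promoters, 0.00 from 1 to 50 kb, 0.09 from 50 to 200 kb, 0.15 from 200 to 300 kb, 0.18 from 300 to 500 kb, 0.20 from 500 kb to 1 Mb and 0.22 beyond 1 Mb. In the pancreas alone the same classes gave -0.07, 0.02, 0.13, 0.24, 0.31, 0.37 and 0.47. In the liver the desert classes gave 0.22, 0.21, 0.15 and 0.12 from the nearest to the farthest, and in the lungs 0.02, 0.02, 0.04 and 0.01. The share called higher in the mean of organs did not rise within the deserts either, with 5.80, 5.71, 4.88 and 5.05%. The Smad4 effect in the lungs minus that in the pancreas, tested as an interaction, gave 0 calls by limma in desert peaks and 0% of all peaks, with 1494 desert peaks (10.5%, and 11% of all) at an unadjusted p under 0.05, 0 by edgeR, 1.18% by DESeq2 and a median of -0.23. Without Lung_OFF replicate 2 it gave 2.48%. The Smad4 effect in the liver minus that in the lungs also gave 0, with 852 desert peaks (5.96%, and 5.25% of all) at an unadjusted p under 0.05, 0 by edgeR, 0.070% by DESeq2 and a median of 0.17. Neither test shows that the Smad4 effects of the organs were alike.

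AP-1 letters went with gain on Smad4 restoration in the mean of organs as well, inside and outside the deserts. Of 5667 desert peaks with a match 424 (7.48%) were higher and 42 (0.741%) lower in the mean of organs, and of 8626 without 368 (4.27%) were higher and 267 (3.10%) lower. The medians were 0.30 with and 0.09 without a match, and the share higher was larger with a match in each of the 5 bands of level (4.35 and 1.96% in the lowest, 9.63 and 6.45% in the highest). Outside the deserts the shares higher with and without a match were 6.02 and 2.15% from 1 to 50 kb and 7.70 and 3.55% from 50 to 200 kb. In the pancreas 52 desert peaks with a match were higher and 26 lower, against 50 and 166 without. Desert medians with and without a match were 0.47 and 0.18 in the pancreas, 0.38 and 0.09 in the liver and 0.057 and 0.004 in the lungs. Of desert peaks with SMAD letters 18 (6.77%) were higher and 2 (0.752%) lower in the mean of organs, against 5.52% and 2.19% of the others. SMAD letters did not go with gain in the pancreas, where 1 peak (0.376%) was higher and 4 (1.504%) lower. The others had 0.72% and 1.34% there. With SMAD letters 5 peaks (1.88%) were higher in the liver, against 0.528% of the others. These are few peaks, and KLF letters had a similar share there, with 4 peaks (1.35%) higher. Of the 115 peaks with HNF4 letters 2.61% were higher and 6.09% lower in the mean of organs. The organ and Smad4 comparisons share the Liv_OFF and Lung_OFF samples, so no overlap between their peaks is given.

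Single peaks show the Smad4 response beside the organ levels. The peak inside Ptprg at chr14:11965001-11966323 had 212, 235 and 242 normalized counts in Panc_OFF and 334, 266 and 510 in Panc_ON, 39.5 and 51.5 in Liv_OFF and 139 and 152 in Liv_ON, and 119, 85.9 and 103 in Lung_OFF and 357, 285 and 206 in Lung_ON. Smad4-on samples were higher in all 3 organs without overlap, but peaks named for the mean of organs were required to have this. The pancreas was highest in the off state. The mean log2 fold change was 1.25 ± 0.16 (adjusted p = 0.00162 by limma). The Epm2a/Utrn peak at chr10:12207212-12207935, beside the dystrophin relative utrophin, had 1.23 and 6.97 in Liv_OFF against 55.9 and 28.4 in Liv_ON, 64.9, 76.8 and 62.0 in Panc_OFF against 117, 129 and 160 in Panc_ON, and 74.6, 45.6 and 49.1 in Lung_OFF against 157, 89.1 and 85.8 in Lung_ON. It was almost shut in Liv_OFF and rose with Smad4 without reaching the lowest pancreas sample, at 3.28 ± 0.50 in the liver (adjusted p = 0.028 by limma).

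Some peaks named above for a low level in Liv_OFF also had higher values in Liv_ON, but they were chosen for low values in the same Liv_OFF libraries, which favors a rise. The Runx2 peak went from 413 and 451 in Liv_OFF to 789 and 738 in Liv_ON, at 0.82 ± 0.11 (adjusted p = 0.0214 by limma), and had 1540, 1587 and 1420 in Panc_ON and 1325, 1381 and 1306 in Lung_ON. Liv_ON stayed below every pancreas and lung sample. The Nav3/E2f7 peak rose by 1.27 ± 0.23 in the liver (adjusted p = 0.0435 by limma), and the peak between Chd7, a chromatin remodeler, and Clvs1 went from 244 and 373 to 615 and 757, at 1.17 ± 0.18 (adjusted p = 0.028 by limma). The second peak inside Myo16 rose by 0.80 ± 0.11 in the mean of organs, from 76.5 and 89.2 in Liv_OFF to 231 and 206 in Liv_ON. Of the named higher peaks in the pancreas, that between Trps1, a GATA-type repressor, and Eif3h, went from 73.4, 59.0 and 58.3 to 235, 246 and 202, at 1.83 ± 0.28 (adjusted p = 0.0105 by limma). Those in Cenpq/Ptchd4 (2.72 ± 0.42) and Rab38/Tmem135 (2.71 ± 0.55) were low, at up to 2.68 and 0.926 in Panc_OFF and up to 19.9 and 11.1 in Panc_ON.

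Other peaks fell with Smad4 on. The Jag1/Btbd3 peak at chr2:137794710-137795309, beside the Notch ligand gene Jag1 and with 2 FOX matches above, had 54.7, 50.0 and 44.5 normalized counts in Panc_OFF and 11.6, 13.6 and 19.2 in Panc_ON, 146 and 92.0 in Liv_OFF and 18.6 and 34.5 in Liv_ON, and 62.6, 116 and 101 in Lung_OFF and 32.6, 42.2 and 57.9 in Lung_ON. Smad4-on samples were lower in each organ without overlap, which was again required for naming. The log2 fold change was -1.63 ± 0.21 in the mean of organs (adjusted p = 0.00177 by limma). The Klf4/Gm26657 peak at chr4:56104854-56105307, 573 kb from Klf4, an epithelial and gut zinc-finger factor, had 29.9, 35.7 and 38.9 in Panc_OFF and 19.6, 29.7 and 26.1 in Panc_ON, 64.2 and 39.0 in Liv_OFF and 11.6 and 3.05 in Liv_ON, and 28.5, 43.5 and 37.0 in Lung_OFF and 14.6, 5.75 and 7.47 in Lung_ON. It was lower in every organ without overlap, as required for naming here too. The pancreas difference alone was not called (-0.47 ± 0.44), and the mean of organs was -1.75 ± 0.27 (adjusted p = 0.00446 by limma).

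Another peak of the Klf4 desert, 370 kb from Klf4, had 407, 414 and 364 in Panc_OFF and 109, 119 and 156 in Panc_ON, at -1.63 ± 0.23 (adjusted p = 0.00963 by limma). It stood at 534 and 563 in Liv_OFF and 406 and 478 in Liv_ON, and its lung groups overlapped (291, 560 and 540 off, 335, 401 and 515 on). The Usp25/Gm11146 peak fell in both pancreas and liver, from 56.4, 74.1 and 87.0 to 11.6, 11.1 and 5.37 at -2.87 ± 0.44, and from 136 and 69.7 to 17.5 and 8.12 at -2.92 ± 0.54. The Pdcd1/Fam174a peak fell in the pancreas, from 81.1, 61.6 and 75.0 to 16.9, 17.3 and 12.3, at -2.16 ± 0.33. The Tenm2/Mat2b peak, 662 kb from the nearest start, fell by 1.94 ± 0.31 on the log2 scale in the mean of organs, with 191 and 141 in Liv_OFF and 23.3 and 37.6 in Liv_ON.

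**Figure D5:**
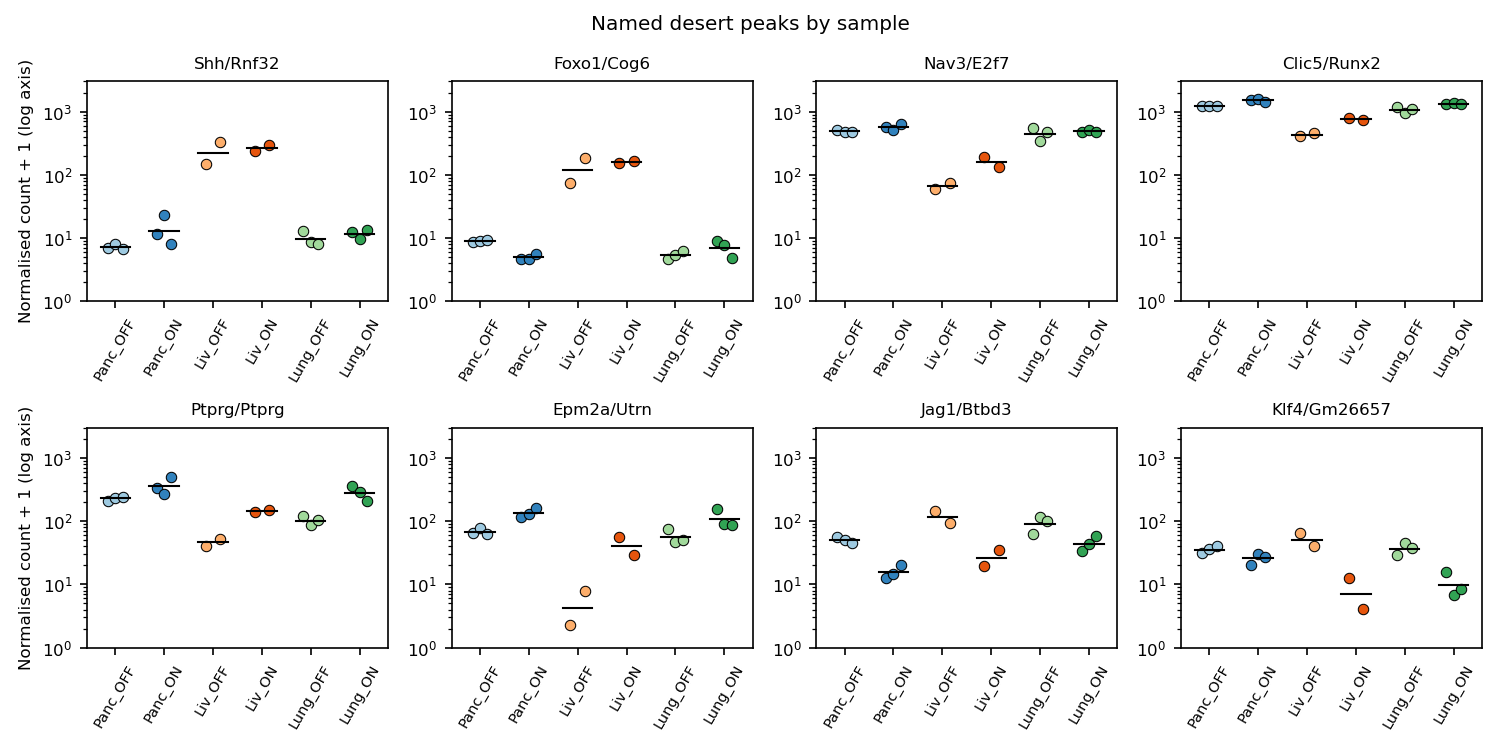
Normalized count plus 1, on a log axis, at 8 desert peaks in the 6 groups of samples; each point is 1 sample and each line the mean on the log scale. The Shh/Rnf32 and Foxo1/Cog6 peaks are open in the liver alone, the Nav3/E2f7 and Clic5/Runx2 peaks are low there, and the 4 others move with Smad4, as the Epm2a/Utrn peak does from 1.23 and 6.97 to 55.9 and 28.4 in the liver.

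Deserts with many Smad4 calls mostly gained, and 71.9% of all desert calls in the mean of organs were higher. In the mean of organs 447 deserts held a call and 60 held at least 5, of which 50 were mostly higher and 8 mostly lower with Smad4 on, with 23 all higher and 1 all lower. Called neighbors up to 5 kb apart moved the same way in 82 of 84 pairs, and 67.1% of the 246 pairs over 100 kb apart did. Jag1/Btbd3 had the most, with 12 higher and 2 lower of 85 peaks and a median of 0.41. Its summed counts were 7421, 7768 and 8261 in Panc_OFF and 9089, 9000 and 11998 in Panc_ON, 4034 and 4490 in Liv_OFF and 5577 and 5859 in Liv_ON, and 9556, 6048 and 8220 in Lung_OFF and 9270, 8537 and 8098 in Lung_ON. Pancreas and liver sums were higher with Smad4 on without overlap, and the lung sums overlapped. Flrt3/Kif16b followed with 12 higher and none lower of 100, Inhba/Sugct with 11 and 1 of 82 and the Gsdmc side of Myc with 9 and 3 of 111, and Nmbr/Cited2 ran the other way, with 4 higher and 8 lower of 103.

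In the pancreas alone 208 deserts held a call and 2 held at least 5, so no desert gathered the Smad4 calls there. Those 2 were Tenm2/Mat2b (2 higher, 3 lower of 82) and the Gsdmc side of Myc (3 and 2 of 111), followed by Pkn2/Lmo4 (2 and 2 of 40), Akr1e1/Klf6 (3 and 1 of 56) and Klf5/Klf12 (0 and 4 of 57). By flanking gene, the TGF-beta superfamily and matrix deserts had 19 higher and 1 lower of 189 peaks in the mean of organs (10.6% called, median 0.29). Inhba/Sugct alone gave 11 of these higher calls and the lower call, with 82 of the peaks. Each other desert of the list had at most 2 higher calls. Over all desert peaks 7.70% were called, 5.54% higher and 2.16% lower, with a median of 0.18. The endoderm and epithelial deserts had 40 and 21 of 725 (8.41%, median 0.17), the RUNX, AP-1 and mesenchymal deserts 10 and 6 of 252 (6.35%, 0.08) and the growth gene deserts 13 and 8 of 305 (6.89%, 0.07), shares near that over all desert peaks. Arrdc4/Nr2f2, beside an orphan nuclear receptor of venous and mesenchymal cells, had 7 higher and none lower of 31, with a median of 0.94, and Irx3/Irx5, between a pair of homeobox genes, had 3 and none of 8, with a median of 0.75. Both deserts were counted in the endoderm and epithelial list. The deserts on the other side of Nr2f2 and Irx3, Nr2f2/Gm10295 and Fto/Irx3, had no calls among 27 and 8 peaks, with medians of 0.19 and 0.20.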

How the data were processed

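Accessible chromatin of sorted tumor cells was measured by bulk ATAC-seq in 16 mice, each 1 library. Per the study's methods, the authors used Trim Galore and cutadapt for trimming, Bowtie2 for alignment to mm10 and MACS2 for peaks, merged peaks within 500 bp into one atlas, counted reads with featureCounts and deposited the counts divided by DESeq2 size factors, a signal per peak and sample. The filter behind the deposited table, read shifting and duplicate removal are not given in the sources used here; peak edges and depth in weak peaks depend on them.

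Each value was turned back into whole reads (tolerance 0.1 of a read) for the count tools. Peaks were tested with limma 3.58.1 (R 4.3.3), with trend and robust variance, on log2(normalized count + 1), with 6 group means and Benjamini-Hochberg adjustment over 136630 nuclear peaks. Fold changes are on that scale and understate changes of low peaks. No filter on low values was used. Alternatives were edgeR 4.0.16 and DESeq2 1.42.0 on the recovered reads, a pseudocount of 10, a mean of at least 20, quantile normalization, a GC correction, stricter thresholds, other distances, a replicate block centered within each organ, fits of only the groups compared, and leaving out each library. The limma script was tested on simulated data. p-values measure the spread between mice within a group, by an estimate shared over the 6 groups. For the liver groups, which have the fewest mice, that estimate comes largely from pancreas and lung mice.

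Named peaks were called desert peaks whose replicates did not overlap between groups: the 5 of smallest p in each direction for liver against lungs with Smad4 off and the 3 of smallest p in each direction for the other off-state organ comparisons and for Smad4, plus the 3 of highest mean. For Smad4 in the mean of organs, on and off replicates had to be apart in each organ. Named deserts were the 10 with the most calls for liver against lungs, the 5 with the most for Smad4 in the pancreas and in the mean of organs, and, among deserts of at least 15 peaks, the 5 with the largest share in each direction. One named desert and one allele of the model are not reported here. Members, gene lists and motifs were chosen with earlier results of these data known. Sequences and GC content were read from the mm10 genome with pysam 0.24.0. The table gives starts and ends as printed here.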

Additional observations from a re-analysis of the deposited data

How the results depend on the processing

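The share of desert peaks called stayed within 1.5 times its main value in all 18 alternatives for liver against lungs and for liver against pancreas with Smad4 off, at 38.1 to 56.9% and 50.7 to 59.6% when single libraries were left out. Leaving out single libraries gave 11.8 to 39% for liver against lungs and 40 to 64.5% for liver against pancreas with Smad4 on, 10 to 20.9% for lungs against pancreas with Smad4 off and 18.9 to 31.8% with Smad4 on. For Smad4 it gave 0.133 to 2% (pancreas), 0.007 to 2.62% (liver), 0 to 0.007% (lungs) and 2.54 to 14.8% (mean of organs). For the interactions it gave 0 to 2.48% (lungs minus pancreas) and 0 to 0.007% (liver minus lungs).

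Thresholds of 1 and 0.05 gave 13% for lungs against pancreas with Smad4 off, and for Smad4 0.539% (pancreas), 0.098% (liver) and 1.81% (mean of organs). For Smad4 in the pancreas a mean of at least 20 gave 3.24%, quantile normalization 4.74%, a fit of only these groups 4.41% and DESeq2 5.93%. For Smad4 in the liver the distance of 500 kb gave 0.351%, a pseudocount of 10 0.266%, a mean of at least 20 1.07%, quantile normalization 0.21%, only these groups 0.035%, edgeR 0.196% and DESeq2 2.47%. For Smad4 in the lungs a pseudocount of 10 gave 0.007% and DESeq2 0.616%, and DESeq2 gave 1.18% and 0.07% for the interactions (lungs minus pancreas, liver minus lungs). The causes were not tested.

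The deviations of same-numbered off and on samples correlated at 0.491, 0.124 and 0.214 in the lungs, where the numbers may pair the samples, and at -0.33, 0.0271 and -0.33 (pancreas) and 0.0834 (liver), where they share only a number. With the replicate block Smad4 in the lungs still gave 0 calls. The block gave 3.58% for Smad4 in the pancreas, 0.301% in the liver and 0.119% for lungs minus pancreas, and the replicate block with the GC correction 3.2%, 0.147% and 0%. It left the organ comparisons within 1.5 times their main share, for example 21.8% and 30.1% for lungs against pancreas with Smad4 off and on. Liver values rest on 2 mice a group and a median of 11 to 18 reads per desert peak, so small changes there were not detectable.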
